A study of Mus musculus with 88 samples.

Results

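Resilient C57BL/6Crl (B6) mice were compared with unstressed B6 control mice in the ventral hippocampus (vHPC) across all genes, with 8 resilient and 6 control mice, which gave 14 of the 88 libraries in the series. The mice were taken by their labels (region, strain and phenotype), a rule that uses no measured value. The change in resilient mice was then divided into a component along the difference between DBA/2Crl (D2) and B6 control mice and a component that departs from it, for which the 6 D2 control mice of the vHPC were used. All mice were inbred males aged 8 weeks. Resilient mice had been attacked daily by larger CD1 males (chronic social defeat stress, CSDS) and afterwards approached an unfamiliar CD1 mouse about as much as controls did, whereas the B6 and D2 controls were never defeated. Tissue was taken 6 to 8 days after the last defeat, and each vHPC library came from 1 mouse. The 28 vHPC libraries also include B6 and D2 susceptible mice, which were defeated and then avoided the CD1 mouse, and all 28 share the estimate of the spread.

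The vHPC is the part of the hippocampal formation linked to anxiety and to control of the stress axis, and its excitatory neurons project to the amygdala, the medial prefrontal cortex (mPFC) and the bed nucleus of the stria terminalis (BNST). CSDS is a widely used model in which some mice come to avoid social contact and others do not. B6 and D2 are inbred strains with different alleles at many genes, and transcripts that one strain makes and the other nearly lacks serve as markers of genotype.

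Values are log2 CPM (read counts scaled to the size of each library) of 19559 genes, which the authors had adjusted for library preparation and sequencing sets before deposit, and such values do not give the depth of a library. No library preparation set held both a B6 control and a resilient mouse, so set and phenotype cannot be told apart. None held both a B6 control and a D2 control, so set and strain cannot be told apart between the vHPC controls either. Sets 3 and 7 held both resilient mice and D2 controls. Sequencing set 1 held all 6 controls and 1 resilient mouse (replicate 4), and the other 7 resilient mice were in sequencing set 2. Markers of dentate granule cells summed to 481 to 536 CPM in controls and 421 to 545 CPM in resilient mice, and those of CA1 to 543 to 592 and 493.2 to 633 CPM, so hippocampal markers were present in both groups. Those listed for the ventral hippocampus summed to 354 to 391 CPM in controls and 303 to 392 CPM in resilient mice. Choroid plexus markers ranged widely, from 49.1 to 2350 CPM in controls and from 42.2 to 1272 CPM in resilient mice.

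The first question was where each mouse stood on the difference between the strains. The 8 resilient mice stood apart from the 6 controls, in a narrow band toward the D2 controls, although all 14 mice carry the B6 strain label. To choose genes without the vHPC, 88 marker genes were taken from the BNST of other mice, where 439 genes differed between D2 and B6 controls by edgeR's quasi-likelihood test (2.51% of 17515 tested). The markers are those with an absolute log2 difference over 3 that are also in the vHPC table. The position of a mouse is its projection on the BNST differences of these genes, scaled so that the B6 controls of a region average 0 and its D2 controls average 1.

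In the vHPC, B6 controls lay at −0.027 to 0.029 (median −0.0013), resilient mice at 0.294 to 0.365 (median 0.315) and D2 controls at 0.951 to 1.07 (median 0.999). None of the 3 groups overlapped. The resilient mean was 0.323 ± 0.029 (SD, n = 8), and its difference from the controls had an exact permutation p of 0.000333 (two-sided, 3003 arrangements), the smallest that 8 against 6 mice allow. B6 susceptible mice lay further along, at 0.434 to 0.492, and D2 susceptible mice beyond the D2 controls, at 1.16 to 1.27.

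**Figure D1:**
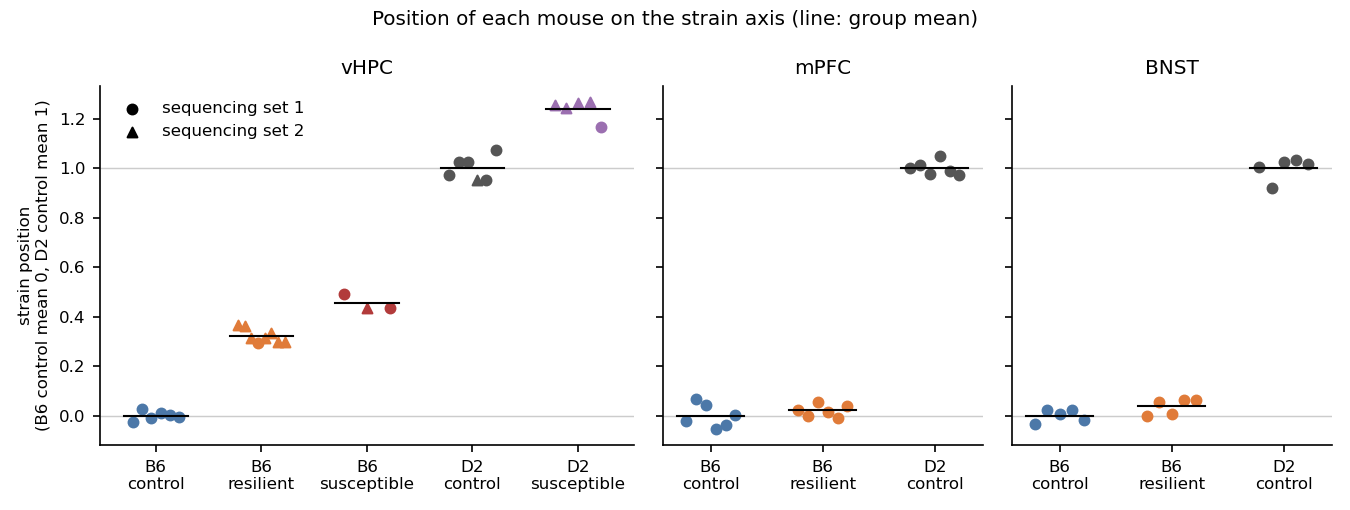
Position of each mouse on the strain axis (B6 control mean 0, D2 control mean 1) in the vHPC, mPFC and BNST, with a line at each group mean and, in the vHPC, circles for sequencing set 1 and triangles for set 2. In the vHPC the resilient mice lie at 0.294 to 0.365, apart from the B6 controls at −0.027 to 0.029, whereas resilient and control mice overlap near 0 in the mPFC and BNST.

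The other regions gave different positions, in the mPFC over the 82 of the 88 markers present there. In the mPFC, resilient mice lay at −0.0085 to 0.056 and B6 controls at −0.053 to 0.067. In the BNST they lay at −0.00097 to 0.064 and −0.034 to 0.025, so that the ranges overlapped in both regions. The markers were chosen in these same BNST controls, and the BNST positions were computed from the deposited counts. Some mice were sequenced in both the vHPC and the mPFC. The resilient mouse that stood at 0.315 in the vHPC (replicate 5) stood at 0.056 in the mPFC, and the one at 0.299 (replicate 7) stood at 0.015. A pair of control mice stood at −0.0082 and −0.0050 in the vHPC and at 0.067 and −0.039 in the mPFC. The vHPC values had been adjusted for both library and sequencing sets and those of the mPFC for library sets, and the covariates that the authors gave to this adjustment are not given in the sources used here. The part of the adjustment in the vHPC positions, and so in every vHPC difference below, was not tested.

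Positions within the resilient group are given by set. Both mice of library set 1 stood at 0.364 to 0.365, the 3 of set 2 at 0.299 to 0.315, the 2 of set 3 at 0.2995 to 0.334, and the single mouse of set 7, which is also the one sequenced with the controls, at 0.294. Mouse identifiers begin with C1 or C2. Among C1 mice, 3 resilient and 3 control mice differed by 0.349 (exact permutation p = 0.1, the smallest possible), and among C2 mice, 5 and 3 differed by 0.307 (exact permutation p = 0.0179, the smallest possible).

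Across all genes, resilient mice differed from controls in 2120 genes, of which 966 were higher and 1154 lower, and nearly all lay on the side of the D2 controls. These were 10.84% of the genes tested (4.94% higher and 5.9% lower) by limma with a Benjamini-Hochberg adjusted p under 0.05, and 4739 genes had an unadjusted p under 0.05. D2 and B6 controls, which shared no library set, differed in 11603 genes, 59.3% of those tested, with 5911 higher in D2 and 5692 lower. Of the 2120 genes, 2116 differed in the same direction between D2 and B6 controls (964 higher, 1152 lower), 0 in the opposite direction, and for 4 the strain difference did not pass the test. Both contrasts use the same 6 B6 controls, so this count is a description. Analysed with the library set as a covariate, 41 genes were called, all 41 along the strain difference. The median SE was 0.302 in place of 0.0751 on the log2 scale. Library sets 6 and 9 held only B6 controls. Only control replicate 2, in set 5 with D2 susceptible mice, therefore linked the controls to other groups in that fit. With the single resilient mouse of sequencing set 1 against the 6 controls of that set, 325 genes were called, 324 of them along. Of the 76 genes named by rule, 66 lost their call and 2 turned direction with the library set as a covariate, and 44 lost it with the sequencing set. With quantile normalization 1190 genes were higher and 1036 lower, and the position difference was 0.255.

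In the 2116 genes along the strain difference, the changes were mostly a like share of it. For 2107 of the 2116 genes the resilient mean lay between both control means, at a median of 0.344 of the way from B6 to D2 (interquartile range 0.311 to 0.409). These genes were chosen by calls of the same sign in both contrasts, so a positive share was fixed in advance. Both contrasts use the same B6 controls, and the share is therefore also a description. The median absolute change was 0.30 on the log2 scale, and 166 genes changed by more than 1. All 8 resilient mice lay above all 6 controls in 218 genes (1.11% of those tested) and below them in 394 genes (2.01%), and 609 of the 2116 genes showed such a gap. In 584 of the 2116, every resilient mouse lay beyond every B6 control and short of every D2 control.

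Several of the highest genes are ones that D2 controls transcribe far more strongly than B6 controls. The 6 highest and 6 lowest protein-coding genes, ranked by fold change and p, are those called in the same direction in resilient mice, in the strain difference of the vHPC and in that of the BNST. Stab2 (chr10:86841198-87008025, GRCm38), which encodes the hyaluronan scavenger receptor stabilin-2, stood at −0.74 to −0.05 log2 CPM in B6 controls (median −0.36), at 1.66 to 2.48 in resilient mice (median 2.00) and at 6.58 to 7.51 in D2 controls (median 7.23). The 3 groups did not overlap. The resilient mean was 2.42 ± 0.18 (SE) higher on the log2 scale (adjusted p = 6.93e-10), against a strain difference of 7.502. In the mPFC and BNST the strain difference of Stab2 was 7.03 and 5.84, and resilient mice differed from controls by 0.52 and −0.17, which did not pass the test.

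**Figure D2:**
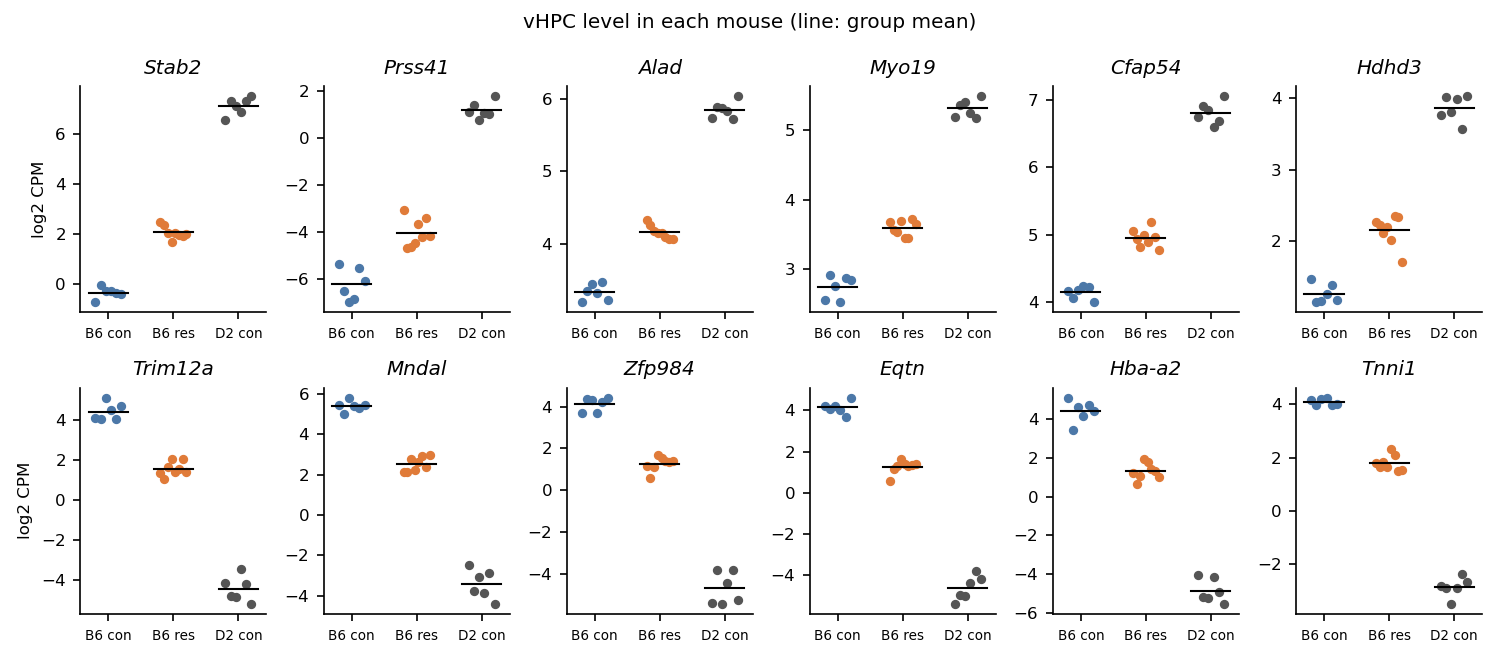
Level in log2 CPM of 12 genes in each vHPC mouse, for B6 controls (B6 con, 6 mice), B6 resilient mice (B6 res, 8) and D2 controls (D2 con, 6), with a line at each group mean. Resilient mice form a separate cluster between both control groups in every panel, and for Stab2 they sit at 1.66 to 2.48, between B6 controls at −0.74 to −0.05 and D2 controls at 6.58 to 7.51.

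Alad (chr4:62509169-62519918), an enzyme of haem synthesis, and Hdhd3 (chr4:62499008-62503467) lie close together on chromosome 4. Alad was at 3.21 to 3.49 log2 CPM in B6 controls (median 3.35), 4.07 to 4.34 in resilient mice (median 4.151) and 5.72 to 6.03 in D2 controls (median 5.85). Hdhd3 ranged from 1.16 to 1.48 in B6 controls (median 1.23), from 1.71 to 2.36 in resilient mice (median 2.22) and from 3.56 to 4.02 in D2 controls (median 3.89). For both genes every resilient mouse was above every B6 control and below every D2 control. The resilient means were higher by 0.82 ± 0.058 (SE, adjusted p = 2.43e-10) for Alad and by 0.88 ± 0.094 (adjusted p = 2.73e-07) for Hdhd3. Myo19, a mitochondrial myosin, was 0.85 ± 0.071 higher (adjusted p = 4.76e-09) and Cfap54, a protein of the ciliary axoneme, 0.81 ± 0.067 higher (adjusted p = 4.54e-09), again without overlap. Prss41, a serine protease, was far under 1 CPM in both B6 groups (−6.99 to −5.38 in controls, −4.69 to −3.06 in resilient mice) and at 0.75 to 1.76 log2 CPM in D2 controls. Its difference of 2.19 ± 0.28 (adjusted p = 4.01e-06) is therefore one between adjusted values far under 1 CPM, and with quantile normalization it was −0.16. The reads behind such values cannot be told from them, and the part of the authors' adjustment was not tested.

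The lowest genes were present at moderate levels in B6 controls and nearly absent from D2 controls. Mndal (chr1:173849126-173942491), an interferon-inducible gene of the p200 family, was at 5.00 to 5.82 log2 CPM in B6 controls (median 5.44), 2.11 to 2.99 in resilient mice (median 2.51) and −4.39 to −2.50 in D2 controls (median −3.41). Eqtn, which encodes a protein of the sperm acrosome, was at 3.70 to 4.61 in B6 controls (median 4.14), 0.56 to 1.63 in resilient mice (median 1.34) and −5.39 to −3.79 in D2 controls (median −4.70). No resilient mouse reached the lowest control in either gene. The differences were −2.89 ± 0.30 (SE, adjusted p = 1.54e-07) for Mndal and −2.88 ± 0.26 (adjusted p = 2.08e-08) for Eqtn. Trim12a, of the tripartite motif family, and Zfp984, a zinc finger gene, changed by −2.85 ± 0.30 (adjusted p = 2.21e-07) and −2.84 ± 0.28 (adjusted p = 6.25e-08), with all 8 resilient mice below all 6 controls. In the mPFC and BNST, where the strain difference of Mndal was −4.20 and −5.74, resilient mice differed from controls by −0.15 and −0.41, which did not pass the test.

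Tnni1 (chr1:135779434-135810989) and Tnnt2 (chr1:135836354-135852260), a pair of troponin genes of striated muscle, are neighbours on chromosome 1. Tnni1 was at 3.98 to 4.25 log2 CPM in B6 controls (median 4.09), 1.499 to 2.32 in resilient mice (median 1.72) and −3.49 to −2.37 in D2 controls (median −2.85). These groups did not overlap, and the resilient mean changed by −2.30 ± 0.14 (SE, adjusted p = 5.54e-11). Tnnt2 ranged from 1.01 to 2.96 in controls and from −0.51 to 1.07 in resilient mice, of which 7 lay below every control, and changed by −1.73 ± 0.36 (adjusted p = 0.00178). Hba-a2, an alpha-globin gene, was at 3.47 to 5.11 in B6 controls, 0.67 to 1.97 in resilient mice and −5.53 to −4.05 in D2 controls, a difference of −3.10 ± 0.30 (adjusted p = 4.47e-08). Hba-a2 is nearly identical to Hba-a1, so the division of reads between them is uncertain.

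Among the strain markers, the 3 protein-coding genes with the highest BNST difference were Stab2, Serpina1b and Rufy4, and the 3 with the lowest were Gramd3, Hba-a2 and Tnnt2. Gramd3 was at 5.26 to 5.75 log2 CPM in B6 controls, 3.08 to 3.97 in resilient mice and −1.20 to −0.32 in D2 controls, and the groups did not overlap. Its change of −1.99 ± 0.17 (SE, adjusted p = 7.56e-09) compared with −0.11 in the mPFC and −0.14 in the BNST, neither of which passed the test. Serpina1b, an antitrypsin gene with near-identical paralogs, and Rufy4 were under 1 CPM in all B6 control and resilient mice, and changed by 2.01 ± 0.28 (adjusted p = 1.55e-05) and 1.66 ± 0.41 (adjusted p = 0.00775).

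Genes chosen in the BNST as different between the strains often changed in vHPC resilient mice, and then nearly always toward D2. Of the 439 such genes, 394 are in the vHPC table, and 254 of them (64.5%) were called in resilient mice, 247 toward the D2 level and 7 away from it. Of 176 genes higher in D2, 99 rose, and of 218 lower in D2, 148 fell. The share called grew with the BNST difference, from 50 of 108 genes with an absolute log2 difference up to 1, through 78 of 128 between 1 and 2 and 48 of 70 between 2 and 3, to 78 of 88 over 3. The median change toward D2 in these classes was 0.14, 0.33, 0.59 and 1.37 on the log2 scale. Of the 15968 vHPC genes tested and not called in the BNST, 1562 (9.78%) were called in resilient mice, 787 in the direction of their BNST strain estimate and 775 against it.

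**Figure D3:**
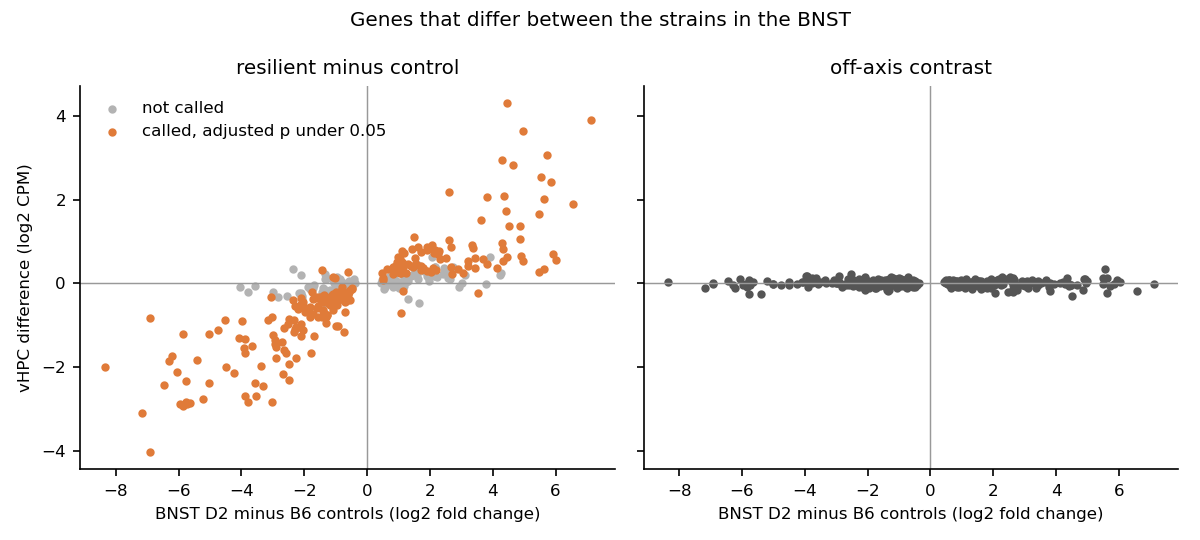
For the 394 genes called between D2 and B6 controls of the BNST, the vHPC difference (log2 CPM) against the BNST strain difference (log2 fold change), at left for resilient minus control and at right for the off-axis contrast. On the left 247 called genes lie toward D2 and 7 away from it, whereas on the right the points lie near 0 across the whole range.

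Called genes were spread over the genome. Their share was lowest on chromosome X (6.95% of 662 genes) and highest on chromosome 17 (14.8% of 811) and chromosome 7 (13.9% of 1585). It was 11.5% among protein-coding genes, 10.53% among lincRNAs, 9.58% among pseudogenes and 8.25% among antisense genes, and between 8.67% and 12.4% in classes of mean level.

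The second question was what changed in resilient mice apart from the strain difference. No gene passed the test. The off-axis contrast compares the resilient mean with the point 0.323 of the way from the B6 to the D2 control mean, where 0.323 is the mean position of the resilient mice and is treated as known. By limma 0 of 19559 genes were called (0.0%), the lowest adjusted p was 0.99995, and 439 genes (2.244%) had an unadjusted p under 0.05, 228 higher and 211 lower. That share is below the 5% that evenly spread p-values would give. The number fell to between 182 and 287 without resilient replicate 1, 2, 3 or 5 or control replicate 3 or 6, and rose to between 726 and 1673 without control replicate 2 or resilient replicate 4, 7 or 8. The share with an unadjusted p under 0.05 was above 5% without resilient replicate 4 (6.36%) or 7 (8.55%). With C1 mice alone it was 14.3%, and with C2 mice alone 0.031%. Of the 2120 called genes, 115 had such an unadjusted p. With quantile normalization 28 genes were called, all lower and 25 of them under a mean log2 CPM of 1, and with C1 mice alone 126 were called, 125 of them lower.

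Off-axis differences ranged from −0.55 to 0.49 on the log2 scale, with quartiles at −0.04 and 0.04, and 2 genes exceeded 0.5 in either direction, against 625 for resilient minus control. The median SE was 0.0651. The 95% interval lay within 0.5 of 0 for 97.3% of genes and within 0.25 of 0 for 71.6%.

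**Figure D4:**
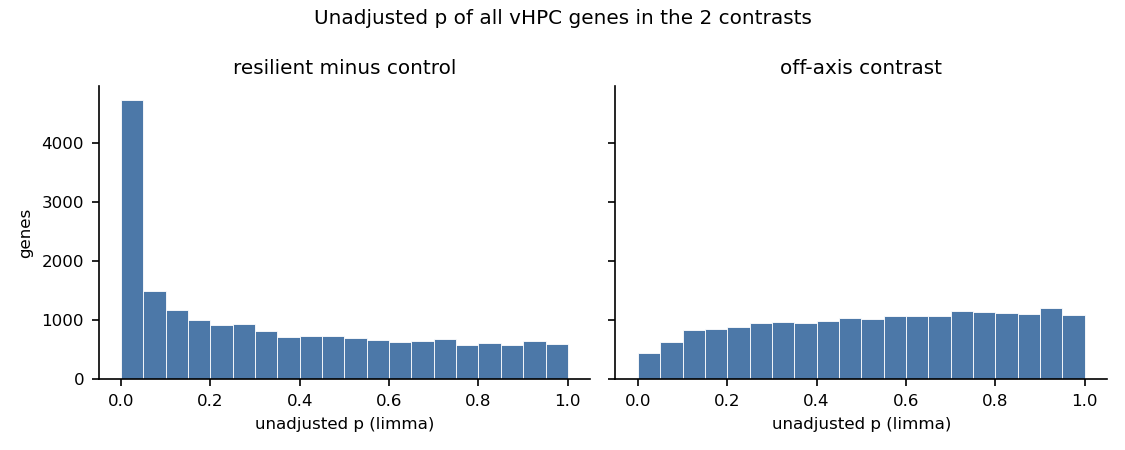
Number of vHPC genes in each 0.05-wide class of unadjusted limma p, for resilient minus control (left) and for the off-axis contrast (right). The lowest class holds 4739 genes on the left and 439 on the right, where the other classes hold 631 to 1210.

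The 4 genes called in resilient mice without a called strain difference were Parm1, Lclat1, Psd and Actg1, and they are named because they are the whole of that class. Parm1 (chr5:91517615-91626894), a mucin-like membrane protein, was at 6.378 to 6.58 log2 CPM in B6 controls (median 6.47), 6.09 to 6.47 in resilient mice (median 6.24) and 6.33 to 6.54 in D2 controls (median 6.391). Of the resilient mice 5 lay below every control, and the others overlapped with them. The difference was −0.18 ± 0.055 (SE, adjusted p = 0.0318), and the off-axis difference was −0.16 (95% interval −0.26 to −0.06, unadjusted p = 0.00259). Lclat1, a lysocardiolipin acyltransferase, also fell, by 0.18 ± 0.059 (adjusted p = 0.0431).

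Psd and Actg1 went the other way. Psd, an exchange factor for the small GTPase Arf6, was at 8.48 to 8.79 log2 CPM in B6 controls (median 8.64), 8.65 to 8.88 in resilient mice (median 8.79) and 8.68 to 8.75 in D2 controls (median 8.73). Actg1, the cytoplasmic gamma-actin, which has many processed copies in the genome that can share its reads, was at 3.45 to 3.62 in B6 controls (median 3.51), 3.56 to 3.78 in resilient mice (median 3.70) and 3.495 to 3.70 in D2 controls (median 3.54). Resilient and control mice overlapped in both genes. The differences were 0.13 ± 0.039 for Psd (adjusted p = 0.0348) and 0.16 ± 0.051 for Actg1 (adjusted p = 0.044), and the off-axis differences 0.10 (95% interval 0.03 to 0.17) and 0.14 (0.05 to 0.23). The size of this class depended on single libraries, from 0 genes without resilient replicate 1, 2 or 3 or control replicate 3 to 50 without resilient replicate 4. None of the 4 genes was called in resilient mice of the mPFC or BNST, where limma and edgeR called 0 of 18946 genes (0.0%) and 0 of 17515 genes (0.0%), with 731 and 328 at an unadjusted p under 0.05, and DESeq2 called 1 gene in the BNST.

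The lowest off-axis p belonged to Pold1, the catalytic subunit of DNA polymerase delta, which is named after its values were seen. It stood at 3.55 to 3.78 log2 CPM in B6 controls (median 3.597), 3.39 to 3.49 in resilient mice (median 3.43) and 2.58 to 2.84 in D2 controls (median 2.64). All 8 resilient mice lay below all 6 controls, but less far than 0.323 of the strain difference. Its off-axis difference was 0.12 (95% interval 0.05 to 0.19, unadjusted p = 0.00178).

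Some genes of mature oligodendrocytes, the cells that form myelin, fell in resilient mice. Of 24 markers 9 fell, 0 rose and 15 did not pass the test, against 5.9% of all genes lower and 4.94% higher. The list median was −0.30, against 0.00055 over all genes, and all 24 were lower in D2 than in B6 controls. Their summed level was 3296 to 3660 CPM in B6 controls, 2236 to 3537 CPM in resilient mice and 1228 to 1934 CPM in D2 controls, so resilient mice overlapped with B6 controls. Mal, a proteolipid of compact myelin, was at 8.08 to 8.26 log2 CPM in B6 controls (median 8.139), 7.34 to 7.96 in resilient mice (median 7.58) and 5.96 to 6.66 in D2 controls (median 6.10). All resilient mice lay below all controls, and the difference was −0.53 ± 0.098 (SE, adjusted p = 0.00057). In these bulk samples fewer cells of a type and less RNA per cell cannot be told apart.

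Other myelin genes differed in whether they passed the test. Mobp, a structural myelin protein, was at 9.29 to 9.54 log2 CPM in controls (median 9.36) and 8.70 to 9.29 in resilient mice (median 8.90), with all resilient mice below all controls, and fell by 0.46 ± 0.10 (SE, adjusted p = 0.00314). Ermn, a cytoskeletal protein of myelinating cells, fell by 0.40 ± 0.10 (adjusted p = 0.0102), with 7 of 8 resilient mice below every control. Opalin, which encodes a membrane protein of myelin, differed by −0.40 ± 0.14 (adjusted p = 0.0551) and did not pass the test, with 5 of 8 below every control. Off the strain axis the marker list had a median of 0.06, with a range of −0.14 to 0.22, against 0.00081 over all genes, and the off-axis difference of Mobp was 0.12 (95% interval −0.07 to 0.30). With the one resilient mouse of sequencing set 1, Ermn differed by 0.028.

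Markers of oligodendrocyte precursors moved in both directions, and their counts stand beside 4.94% of all genes higher and 5.9% lower. Of 15 markers 2 rose and 2 fell (median −0.05): Matn4, an extracellular matrix protein, rose by 0.30 ± 0.077 (SE, adjusted p = 0.0112) and Olig2, a lineage transcription factor, by 0.19 ± 0.061 (adjusted p = 0.0493), whereas Lhfpl3 fell by 0.27 ± 0.058 (adjusted p = 0.00276) and the proteoglycan Vcan by 0.12 ± 0.034 (adjusted p = 0.0199). The direction of Olig2 turned with the library set as a covariate, to −0.15, and that of Matn4 with the single resilient mouse of sequencing set 1, to −0.018.

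Microglial and vascular markers were among those that fell. Of 18 microglial markers 5 fell and 0 rose (median −0.07), where 5.9% of all genes fell, a share that also stands beside the vascular counts here. Fcrls, an Fc receptor-like protein of microglia, was at 5.51 to 5.76 log2 CPM in B6 controls (median 5.62), 4.121 to 5.28 in resilient mice (median 4.799) and 2.33 to 3.07 in D2 controls (median 2.57), and C1qb, a chain of complement C1q, was at 5.49 to 5.81 (median 5.57), 4.95 to 5.43 (median 5.11) and 3.55 to 3.94 (median 3.68). No resilient mouse overlapped with a control in either gene. Fcrls changed by −0.86 ± 0.14 (SE, adjusted p = 0.000103) and C1qb by −0.50 ± 0.093 (adjusted p = 0.00049), whereas Cx3cr1, the fractalkine receptor of microglia, at −0.06, did not pass the test. Of 16 endothelial markers 3 fell (median −0.16), among them Slco1a4, an organic anion transporter of the blood-brain barrier, by 0.24 ± 0.046 (adjusted p = 0.000806) and Ocln, a tight junction protein, by 0.26 ± 0.050 (adjusted p = 0.000837). Of 10 pericyte and smooth muscle markers 4 fell (median −0.24), including Acta2 and Tagln, both of which turned upward with the single resilient mouse of sequencing set 1, to 0.25 and 0.14.

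The lists of astrocytes, choroid plexus and neurons are read against the 10.84% of all genes called. Of 18 astrocyte markers 2 fell, the intermediate filament Gfap by 0.27 ± 0.080 (SE, adjusted p = 0.0315) and glutamine synthetase, Glul, by 0.23 ± 0.047 (adjusted p = 0.0014). None of 14 choroid plexus markers passed the limma test, although their median was −0.56, and their summed level overlapped widely between groups. Of 12 general neuronal markers 1 rose, the enolase Eno2, by 0.17 ± 0.038 (adjusted p = 0.00372), and of 17 interneuron markers 1 rose (Nos1) and 1 fell (Cort). In the dentate gyrus list 2 of 8 fell, Tdo2 by 0.51 ± 0.11 (adjusted p = 0.00223) and Dock10 by 0.18 ± 0.046 (adjusted p = 0.0106). Of 9 CA3 markers 1 rose and 1 fell. The copine Cpne4 fell by 0.18 ± 0.045 (adjusted p = 0.00851), and the cadherin gene Cdh24 rose by 1.143 ± 0.12 (adjusted p = 1.83e-07), from 1.35 to 1.78 log2 CPM in controls to 2.227 to 3.13 in resilient mice, with D2 controls at 4.65 to 5.15.

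**Figure D5:**
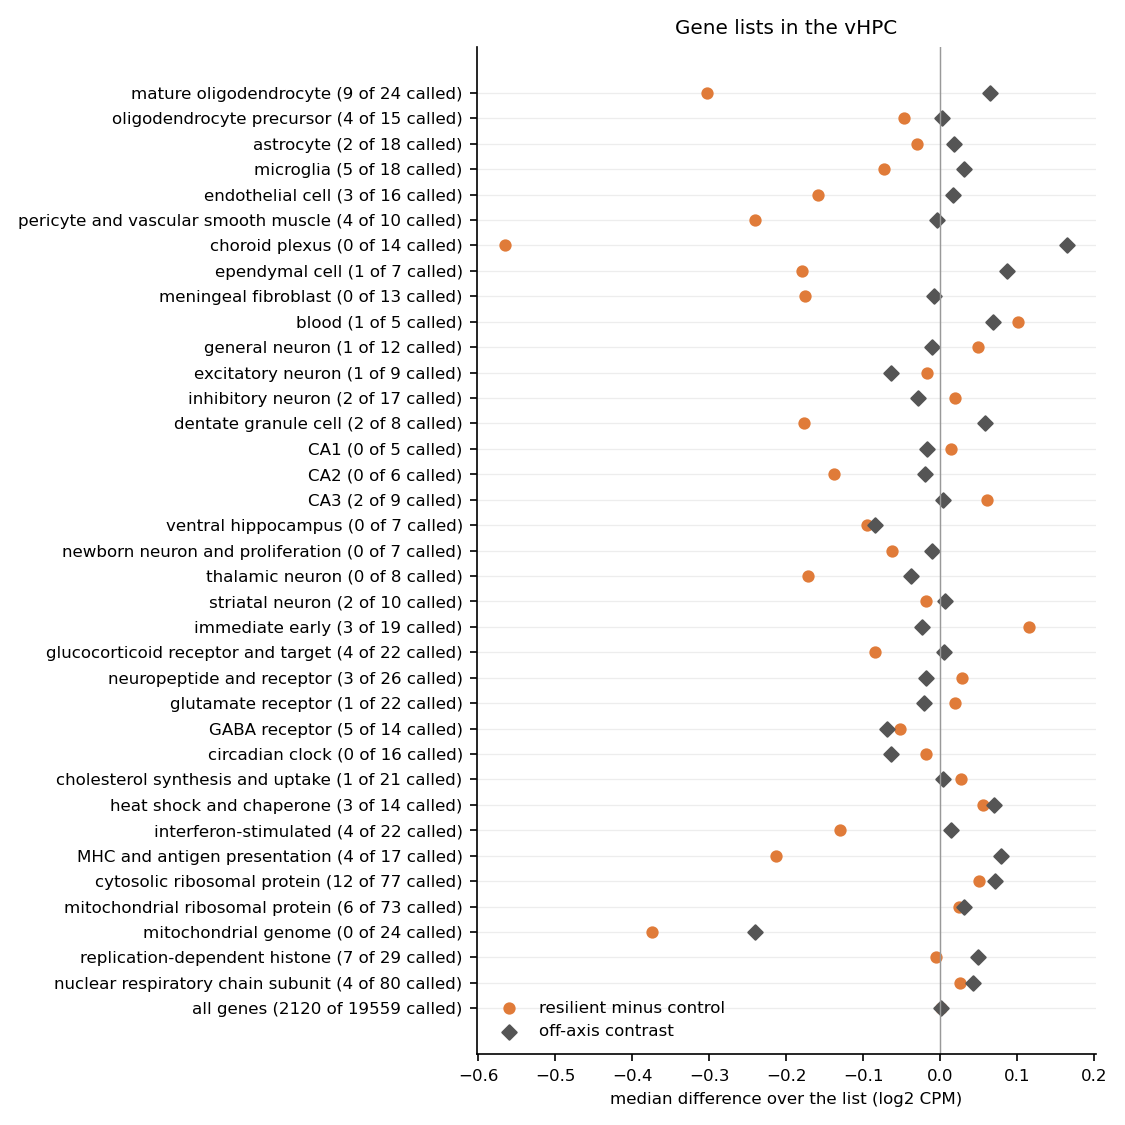
Median difference (log2 CPM) over each gene list for resilient minus control (circles) and for the off-axis contrast (diamonds), with the number of members called in resilient minus control of those in the table. The mature oligodendrocyte list lies at −0.30 for resilient minus control and at 0.06 off the axis, and the mitochondrial genome at −0.37 and −0.24 with no member called.

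Genes that neuronal activity and glucocorticoids control came next. Of 19 immediate early genes 2 rose and 1 fell, against 4.94% and 5.9% of all genes (median 0.12 for resilient minus control, −0.02 off the axis). Junb, a subunit of the AP-1 transcription factor, was at 4.91 to 5.37 log2 CPM in controls (median 5.11) and 5.34 to 5.66 in resilient mice (median 5.57), of which 6 lay above every control, and rose by 0.40 ± 0.071 (SE, adjusted p = 0.000312). Fosb, another AP-1 subunit, rose by 0.56 ± 0.12 (adjusted p = 0.00282), with 7 of 8 resilient mice above every control, and the neurotrophin Bdnf fell by 0.26 ± 0.055 (adjusted p = 0.0027). Each of the 3 lay between the B6 and D2 control means, with off-axis differences of 0.10, −0.0019 and −0.02. Fos and Arc, at 0.45 and 0.24 on the log2 scale, did not pass the test.

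Of 22 glucocorticoid receptor and target genes 4 fell and 0 rose (median −0.08), again beside 5.9% and 4.94% of all genes. Map3k6, a kinase, fell by 0.78 ± 0.15 (SE, adjusted p = 0.000743), with 7 resilient mice below every control. Mt2, a metallothionein, was at 4.25 to 4.67 log2 CPM in controls (median 4.37) and 3.82 to 4.29 in resilient mice (median 4.06), and fell by 0.39 ± 0.096 (adjusted p = 0.00811), which was 0.632 of its strain difference. Its off-axis difference was −0.19 (95% interval −0.36 to −0.02), and that of Mt1 was −0.29 (−0.55 to −0.03), neither called. Of 26 neuropeptides and receptors 1 rose and 2 fell: Crhr1, the receptor of corticotropin-releasing hormone, rose by 0.26 ± 0.085 (adjusted p = 0.0478), and the kappa-opioid receptor Oprk1 and the peptide gene Cartpt fell by 0.30 ± 0.079 (adjusted p = 0.0125) and 0.85 ± 0.23 (adjusted p = 0.0139). With the single resilient mouse of sequencing set 1, Crhr1 differed by −0.13.

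GABA receptor subunits changed in both directions. Of 14 genes 1 rose and 4 fell (median −0.05), where 10.84% of all genes were called. Gabra2 was at 6.32 to 6.57 log2 CPM in B6 controls (median 6.41), 6.71 to 6.96 in resilient mice (median 6.82) and 7.80 to 7.98 in D2 controls (median 7.89). Gabra5, a subunit enriched in hippocampal pyramidal cells, was at 7.1397 to 7.39 in B6 controls (median 7.28), 6.66 to 7.00 in resilient mice (median 6.82) and 6.13 to 6.27 in D2 controls (median 6.19). Neither overlapped between resilient and control mice. Gabra2 rose by 0.41 ± 0.053 (SE, adjusted p = 4.37e-06) and Gabra5 fell by 0.44 ± 0.053 (adjusted p = 1.68e-06). Gabrg3 and Gabra4 fell by 0.15 and 0.12 (adjusted p = 0.0328 and 0.0331).

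In the off-axis contrast 5 of the 14 GABA receptor genes had an unadjusted p under 0.05, all negative and Gabra4, Gabrb1 and Gabrg3 among them, against 2.244% of all genes, and none was called. The off-axis differences were small: −0.08 for Gabra4 (95% interval −0.15 to −0.02), −0.07 for Gabrb1 (−0.13 to −0.01) and −0.10 for Gabrg3 (−0.19 to −0.02). The list median was −0.07.

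Immune genes were read against 5.9% of all genes lower and 4.94% higher. Of 17 antigen presentation genes 4 fell (median −0.21) and of 22 interferon-stimulated genes 4 fell (median −0.13), and none rose in either list. B2m, the invariant chain of class I molecules, was at 5.34 to 6.05 log2 CPM in B6 controls (median 5.81), 4.61 to 5.61 in resilient mice (median 5.09) and 4.06 to 4.63 in D2 controls (median 4.14), and fell by 0.63 ± 0.15 (SE, adjusted p = 0.0066). H2-Eb1, a class II chain, fell by 1.05 ± 0.34 (adjusted p = 0.0457) and was 0.30 higher with the single resilient mouse of sequencing set 1. Bst2 and Gbp3, which encode antiviral proteins, fell by 0.79 ± 0.21 (adjusted p = 0.0126) and 0.52 ± 0.13 (adjusted p = 0.00949).

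Ribosomal protein and histone genes held large changes in single members, most of them in genes with near-identical copies or processed pseudogenes, where the division of reads is uncertain. Of 77 cytosolic ribosomal protein genes 2 rose and 10 fell, with a list median of 0.05. Over all genes 4.94% rose and 5.9% fell, shares that also stand beside the histone counts here. Rpl29 was at 5.76 to 6.19 log2 CPM in B6 controls (median 5.99), 3.55 to 4.11 in resilient mice (median 3.83) and −1.33 to 0.05 in D2 controls (median −0.58), and Fau at −0.73 to 0.06 (median −0.59), 0.56 to 0.998 (median 0.83) and 2.64 to 3.45 (median 3.23). Each stepped from group to group without overlap. Rpl29 changed by −2.17 ± 0.18 (SE, adjusted p = 4.14e-09) and Fau by 1.28 ± 0.13 (adjusted p = 1.2e-07). Of 29 replication-dependent histone genes 3 rose and 4 fell (median −0.0055), led by Hist1h4a at 0.93 ± 0.12 (adjusted p = 4.93e-06) and Hist1h4m at −1.33 ± 0.24 (adjusted p = 0.000331). The chaperone Hspa8 fell by 0.85 ± 0.088 (adjusted p = 1.41e-07), while Hsp90ab1 rose by 0.19 ± 0.055 (adjusted p = 0.0261).

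Mitochondrial lists had shares called under the 10.84% of all genes. Of 73 mitochondrial ribosomal protein genes 1 rose and 5 fell (median 0.02), and of 80 nuclear respiratory chain genes 2 rose and 2 fell (median 0.03). None of the 24 genes of the mitochondrial genome was called by limma in either contrast, although all 24 had lower means in resilient mice (median −0.37) and off-axis differences below 0 (median −0.24). Their summed level was 15988 to 23778 CPM in controls and 10454 to 36876 CPM in resilient mice, a range that enclosed the controls. The ribosomal RNA mt-Rnr2, the most abundant, was at 13.1 to 13.6 log2 CPM in controls and 11.88 to 14.55 in resilient mice. The protein-coding mt-Co1 spread less, at 11.6 to 12.1 in controls and 11.4 to 11.8 in resilient mice.

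In the remaining lists, as above, 10.84% of all genes is the share to read counts against. Rgs9, a regulator of G protein signalling found mostly in striatum, was at 4.59 to 4.88 log2 CPM in controls (median 4.72) and 4.14 to 4.35 in resilient mice (median 4.24), without overlap, and fell by 0.49 ± 0.053 (SE, adjusted p = 3.07e-07), as 1 of 2 genes that fell among 10 striatal markers, the other being the retinoic acid receptor Rarb, by 0.23 (adjusted p = 0.0256). Of 21 genes of cholesterol synthesis and uptake 1 fell, the desaturase Sc5d, by 0.19 ± 0.051 (adjusted p = 0.0176). Of 16 circadian clock genes, 5 CA1, 6 CA2, 8 thalamic and 7 ventral hippocampal markers, none passed the limma test, with medians of −0.02, 0.01, −0.14, −0.17 and −0.09.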

How the data were processed

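The vHPC RNA was depleted of ribosomal RNA, and 1 library was made per mouse. Per the study's methods, the authors trimmed reads, removed duplicates, aligned to GRCm38 with STAR, assigned reads to genes with HTSeq, kept genes of at least 1 CPM in at least 6 samples and adjusted for library and sequencing sets with ComBat. The deposited vHPC and mPFC values are log2 CPM, and the deposited BNST values are counts. All columns were used (0 left out). Groups were taken from the labels, and mice are the replicates.

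On the deposited log2 values, limma 3.58.1 (R 4.3.3; group means over all 28 vHPC libraries, robust moderation) gave resilient minus control, D2 minus B6 control and the off-axis contrast, two-sided, with Benjamini-Hochberg adjustment over 19559 genes. BNST counts were tested with edgeR 4.0.16 (quasi-likelihood, TMM, at least 1 CPM in at least 6 libraries), with DESeq2 1.42.0 as an alternative. Markers needed an absolute log2 difference over 3. Positions were compared by exact permutation over mice (R 4.3.3). Fold changes are on the authors' log2 scale. Coordinates are GRCm38 (GENCODE release 21). Library and sequencing sets are as the study lists them; the deposited log2 values do not give the depth of a vHPC library, which was not used here.

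Named genes are protein-coding. Genes along the strain difference and in the lists needed a mean log2 CPM of at least 1 in 1 group. They were ranked by −log10(p) times fold change. Named were the 6 highest and 6 lowest along the strain difference, and up to 2 each way per list among called members. The 3 highest and 3 lowest markers were ranked by BNST difference, without a limit on level. Opalin, Ermn and Mobp were also named. Some genes that these rules name are not reported here. Places for off-axis genes, and for genes against the strain difference, stayed empty. Members and the 36 gene lists were chosen with earlier results of these data known. The fits were tested on simulated data. For the off-axis contrast these held changes of 1 on the log2 scale, a known position and no library sets. Smaller changes, and sets that go with the groups, were therefore not covered. Alternatives were other fits, normalizations, filters, sets as covariates, identifier prefixes, markers and leaving out each mouse; deriving the off-axis point from least squares over all genes was added after seeing the data. Intervals cover the spread between these mice only, not the uncertainty of the position.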

Additional observations from a re-analysis of the deposited data

Results flagged for a closer look

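In 4 of 154 groups of mice tested among the named genes, the extreme mouse lay far from the others by Dixon's criterion, which chance alone meets in about 1 in 20 groups. All 4 were resilient groups and 0 were control groups. Eqtn, the acrosome gene, was at 0.557 log2 CPM in resilient replicate 1, below the other 7 resilient mice and still above every D2 control. Serpina1b, an antitrypsin gene under 1 CPM in B6 mice, was at −3.80 log2 CPM in resilient replicate 3, above the other resilient mice. Map3k6, the kinase among the glucocorticoid targets, was at 3.02 log2 CPM in resilient replicate 8, the one resilient mouse within the control range. Crhr1, the receptor of corticotropin-releasing hormone, was at 3.35 log2 CPM in resilient replicate 4, the resilient mouse sequenced with the controls.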

How the results depend on the processing

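No paired analysis was possible because resilient and control animals are different mice and their replicate numbers only follow accession order. The main counts were 2120 genes called (966 higher, 1154 lower), 2116 along, 0 against, 4 without a called strain difference, and 0 off-axis. With only the 14 B6 libraries fitted, 1260 were called (515 higher, 745 lower). With library set as a covariate, 41 were called (10 higher, 31 lower), 41 along and 0 without a called strain difference. The strain count fell to 1643, with a median SE of 0.302, and only control replicate 2 linked the controls to other groups. With sequencing set as a covariate, 558 were called (204 higher, 354 lower), 558 along and 0 without a called strain difference. The resilient mouse of sequencing set 1 alone gave 325 (158 higher, 167 lower), 324 along and 1 without a called strain difference, with the lone mouse assumed to vary like the others. C1 mice alone gave 1225 (539 higher, 686 lower), 1142 along, 21 against, 62 without a called strain difference, 126 off-axis, and a position difference of 0.349 (exact permutation p = 0.1). C2 mice alone gave 434 (176 higher, 258 lower), 434 along, and 0 without a called strain difference. Identifier prefix as a covariate left 45 without a called strain difference, and quantile normalization 9, with 28 called off-axis. Strain position as a covariate within B6, which nearly duplicates the group, gave 0 called (0 higher, 0 lower). The cause of these changes was not tested, beyond fewer mice or larger SE.

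Leaving out each mouse in turn gave 1616 (without control replicate 3) to 2650 (without resilient replicate 4) called genes, 704 to 1262 higher, 903 to 1388 lower, 1616 to 2600 along, 0 against, 0 off-axis, 0 to 50 without a called strain difference, strain counts of 11077 to 11837 and position differences of 0.317 to 0.327. DESeq2 gave 92 markers and no count filter 111, of which 88 and 87 were shared with the 88 used, and the off-axis count stayed at 0 with the point taken from mPFC markers, looser BNST markers or least squares over all genes.

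Of 76 named genes, 66 lost their call with the library set as a covariate and 44 with the sequencing set. Some changed direction. With quantile normalization Prss41 was −0.16, Serpina1b −0.28 and Rufy4 −0.37. With library set, Olig2 was −0.15 and Mrps5 −0.014. With the lone mouse of sequencing set 1, Matn4 was −0.018, Tagln 0.14, Acta2 0.25, Dock10 0.0038, Crhr1 −0.13, H2-Eb1 0.30, Rps10 −0.016 and Ermn 0.028. With strain position as a covariate, Stab2 was −0.43, Alad −0.029, Hba-a2 0.83, Rufy4 −0.022, Gramd3 0.91, Tnnt2 1.25, Matn4 −0.86, Acta2 1.66, Eno2 −0.31, Cpne4 0.082, Junb −0.0071, Mt2 0.55, Map3k6 0.47, Crhr1 −0.39, Gabra5 0.32, Sc5d 0.081, Gbp3 0.36, Bst2 0.13, B2m 2.08, H2-Eb1 3.59, Rps10 −0.76, Mrps5 −0.41, Hist1h4m 0.17 and Ermn 0.48.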

Other observations

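The ribosomal RNAs of the mitochondrial genome divided the resilient mice, a pattern chosen after its values were seen. mt-Rnr2, the large subunit RNA, was at 13.1 to 13.6 log2 CPM in B6 controls, at 14.40 in resilient replicate 4, 14.55 in replicate 7 and 14.51 in replicate 8, and at 11.88 to 12.41 in the other 5 resilient mice. mt-Rnr1, the small subunit RNA, was at 10.27 to 10.698 in controls, at 12.08, 12.55 and 12.24 in replicates 4, 7 and 8, and at 8.84 to 9.64 in the other 5. No resilient mouse lay within the control range of either RNA. Both sides of the divide held mice of library sets 2 and 3, and all 3 C1 resilient mice lay on the low side. Protein-coding transcripts of the same genome did not divide in this way, with mt-Co1 at 11.6 to 12.1 in controls and 11.4 to 11.8 in resilient mice.

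For the 126 genes called off the strain axis in C1 mice alone, the median absolute off-axis difference was 0.34 on the log2 scale in C1 mice, and in C2 mice it was 0.02 in the same direction. In the fit of C2 mice only 6 of all 19559 genes had an unadjusted off-axis p under 0.05 by limma, so no call among the 126 could be read from it. Both fits use the same D2 controls, both sets of mice are small, and the difference between them was not tested.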
